A study of Arabidopsis thaliana with 4 samples.

Results

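Across the nuclear genome of Arabidopsis thaliana, 231 of the 24651 loci in a deposited table of RNA-seq read counts had 0 counts in both whole leaf libraries and at least 20 counts in each of 2 leaf protoplast libraries. These 231 loci (0.937%) are described here. They were chosen on the counts themselves, so their difference between protoplasts and leaf is given as a description and was not tested.

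Protoplasts are plant cells freed from their walls by enzymes. Release of cells from a leaf involves cutting, wall fragments, a change of osmotic pressure and hours in liquid, and plant cells respond to each of these with rapid transcription of wound, defence and stress genes. Genes that are silent in a mature leaf include those reserved for pollen, seed, root or meristem and those that only stress switches on, and a list such as this can hold both kinds.

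The protoplasts came from fully developed leaves of Wild type Col-0 plants, 6 weeks old, grown in short days (8 h light, 16 h dark) at 60 µmol m-2 s-1. Per the labels' protocols, the lower epidermis was pulled off with tape, the leaves were cut beside the main vein, and they were shaken for 2 h in 1% cellulase Onuzuka R-10, 0.3% macerozyme R-10 and 0.6 M mannitol before filtering and washing. Whole leaves of the same genotype, age and growth conditions were not protoplasted, and the labels do not say whether they were peeled. Libraries of poly(A) RNA were prepared with a kit that keeps strand and were read from both ends. Each group had 2 libraries that the labels call replicates without naming plants or days. The p-values below therefore reflect the scatter of libraries alone, and that scatter may be technical.

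The protoplast libraries held 48503141 and 39958035 counts and the leaf libraries 42121436 and 43685947. Of all genes tested by edgeR's quasi-likelihood test, 39.8% were called higher and 40.7% lower in protoplasts. Upper-quartile factors gave 30.6% higher and 54.7% lower, and library size only gave 21.4% and 69.6%. Epidermal markers summed to 5.40 and 4.81 CPM (counts per 1000000, with TMM-scaled library sizes) in protoplasts, against 612 and 628 CPM in leaf, and 4 of 4 tested were lower. All 7 guard cell markers and all 5 phloem markers were lower as well. The 5 mesophyll markers summed to 31976 and 32110 CPM in protoplasts, against 20550 and 20809 CPM in leaf, and with TMM 5 of 5 were higher. TMM and library size alone differ here: the median log2 fold change over all genes was -0.04 with TMM and -0.85 with library size alone, so small changes can turn with the scaling. In bulk RNA, fewer cells of a type and less RNA per cell cannot be told apart.

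The members were mostly transcripts of low level. Their counts had a median of 54 in protoplast library 1 and 43 in protoplast library 2, with highest values of 6454 and 4942. Together they took 38245 and 30891 counts in protoplasts, which is 0.0789% and 0.0773% of the libraries, and 0 counts in leaf. The 3 highest members held 31.9% of these counts and the 10 highest held 49.1%. At least 100 counts in both protoplast libraries were reached by 44 members, and 132 members had fewer than 50 counts in at least 1 protoplast library.

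**Figure D1:**
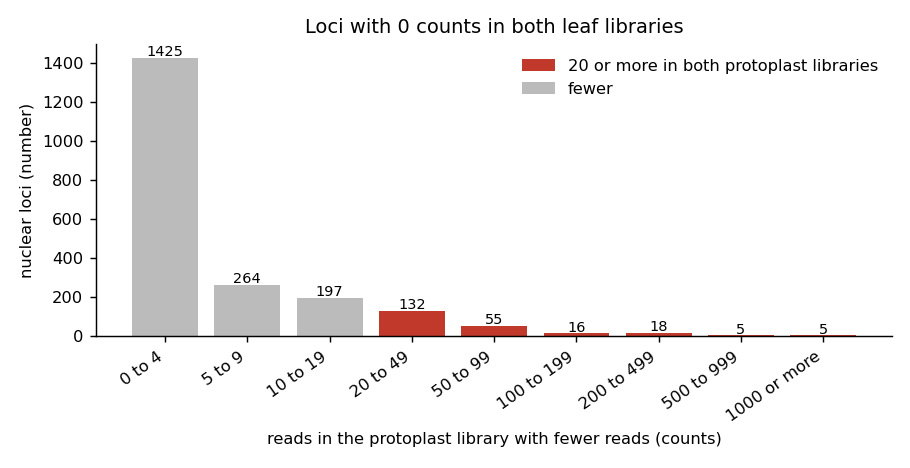
The bars give the number of nuclear loci with 0 counts in both leaf libraries, by the count in the protoplast library with fewer reads. Of 2117 such loci, the 231 in red, 10.9%, had 20 or more counts in both protoplast libraries, and 5 of them had 1000 or more.

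A count of 0 in leaf was read as at most 3 counts per library, 0.0538 and 0.0520 CPM. Against that limit the mean protoplast CPM of the members was at least 11.4-fold to at least 3208-fold higher, with a median bound of at least 27.1-fold, and 33 members were at least 100-fold higher. The median bound depended on the scaling and was 15.5 with library size only. edgeR called 231 of the 231 members higher, beside 39.8% of all 20200 genes tested; the members were chosen on this contrast, and nothing is read from that count.

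The members had similar values in both protoplast libraries. The rule asked for at least 20 counts in each, so loci high in only one library were left out beforehand. This similarity is therefore partly set by the rule. The ratio of CPM in library 1 to CPM in library 2 had a median of 0.979 and ran from 0.485 to 1.73. It was within 1.5-fold for 211 of 231 members, and for 43 of the 44 with at least 100 counts in both libraries.

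**Figure D2:**
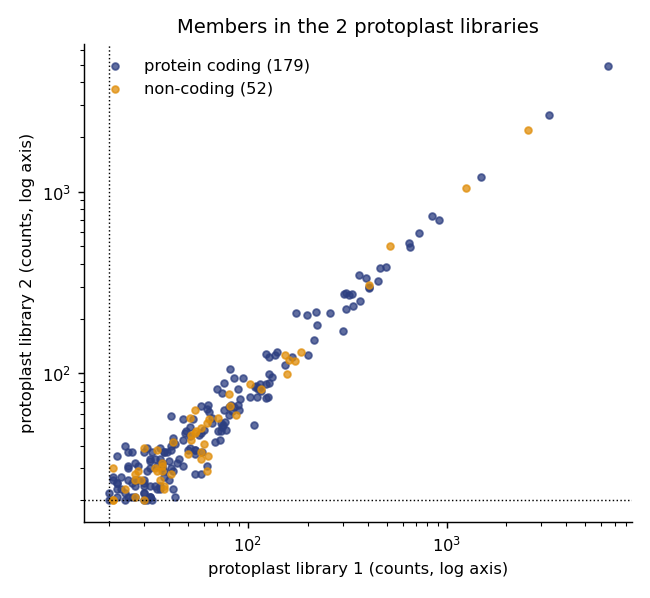
Each point is a member, placed by its counts in protoplast library 1 (horizontal) and protoplast library 2 (vertical), both on log axes, with dotted lines at the minimum of 20. The 179 protein coding and 52 non-coding members overlap over most of the range, and the 5 members with at least 1000 counts in both libraries include non-coding loci.

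At the threshold itself, 21 members had 20 or 21 counts in their lower protoplast library. XTH13, a xyloglucan endotransglucosylase of the cell wall, had 24 and 20 counts in protoplasts and 0 and 0 in leaf. Just outside were 23 loci with 18 or 19 counts in the lower protoplast library, such as the cullin-like CUL2 with 24 and 18 counts. A further 106 loci missed the set by a single leaf read, and these reached 4251 and 3455 counts in protoplasts. ADF11, an actin-depolymerizing factor, had 1934 and 1506 counts in protoplasts and 1 and 0 in leaf. The boundary of the set therefore passes through loci with very high protoplast counts as well as through weak ones.

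Non-coding loci made up more of the set than of the table. There were 52 among the members (22.5%), 44 of them annotated as long non-coding RNA, against 7.29% of all nuclear loci. In the mirrored set of 152 loci with 0 counts in both protoplast libraries and at least 20 in both leaf libraries, 6 (3.95%) were non-coding. A gene symbol was carried by 60 of the 231 members, and 123 coding members had none. The coding members were short, with a median spliced length of 1219 bases against 1656 for all coding nuclear loci. On the 5 chromosomes the members of both types made up between 0.853% and 1.10% of the loci. Divided by length, the median level was 1.39 CPM per kb for coding and 3.72 CPM per kb for non-coding members.

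The member with the highest counts was AT5G12340, which encodes a protein with a DUF4228 domain of unknown function. It had 6454 and 4942 counts in protoplasts and 0 and 0 in leaf, a mean of 169.7 ± 6.45 CPM (SD, n = 2), at least 3208-fold higher. AT3G43250, a coiled-coil protein with a DUF572 domain, followed with 3284 and 2647 counts in protoplasts and 0 and 0 in leaf. GulLO1 belongs to a family that includes the oxidases of L-gulonolactone, an ascorbate precursor. It had 1498 and 1208 counts in protoplasts and 0 and 0 in leaf, at least 764-fold higher. Per length, AT5G12340 stood at 148 CPM per kb, AT3G43250 at 89.5 CPM per kb and GulLO1 at 22.2 CPM per kb.

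Further coding members without a symbol followed. AT5G27010, with ARM repeats, had 920 and 698 counts in protoplasts and 0 and 0 in leaf. AT3G49540, uncharacterized, had 847 and 740 counts in protoplasts and 0 and 0 in leaf. AT2G27505, with an FBD domain found in F-box proteins, had 728 and 591 counts in protoplasts and 0 and 0 in leaf. All 3 had over 500 counts in each protoplast library. AT3G13660, related to the dirigent proteins that guide lignan coupling, had 650 and 521 counts in protoplasts and 0 and 0 in leaf. ATYKT62, a SNARE of the synaptobrevin family that serves membrane fusion, had 361 and 348 counts in protoplasts and 0 and 0 in leaf. TRFL4, similar to telomere-repeat-binding proteins, had 260 and 216, and TIL2, a homologue of the catalytic subunit of DNA polymerase epsilon, had 126 and 74, both with 0 and 0 in leaf. The chloroplast thioredoxin ACHT3 had 85 and 94 counts in protoplasts and 0 and 0 in leaf. Uncharacterized and DUF proteins numbered 35 of the members, out of 2678 such loci in the table (1.31%, near the 0.937% of all nuclear loci).

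**Figure D3:**
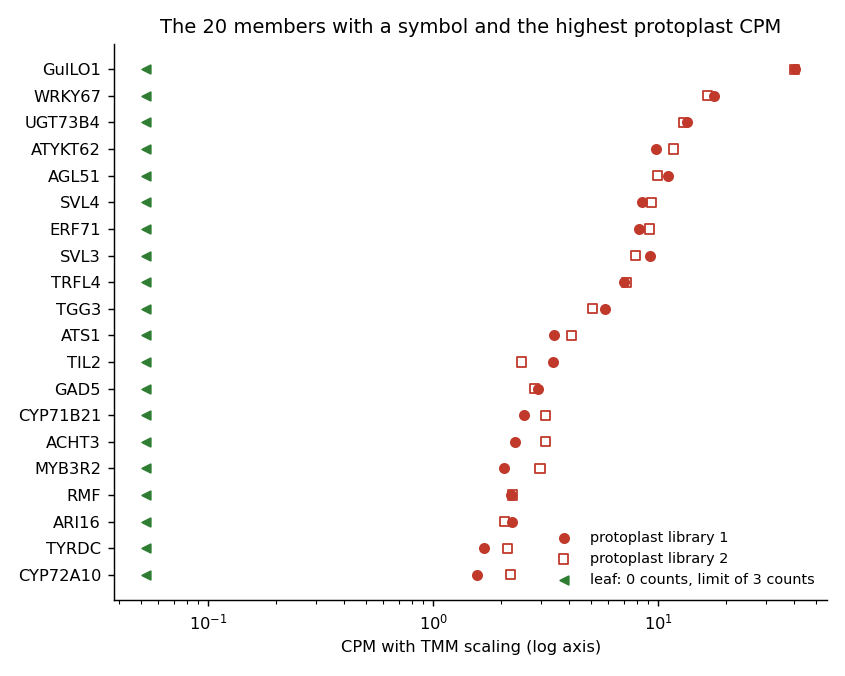
The 20 members with a symbol and the highest protoplast CPM, from GulLO1 to CYP72A10, are plotted on a log axis of CPM with TMM scaling. Filled circles and open squares are protoplast libraries 1 and 2; green triangles mark the leaf limit of 3 counts, about 0.05 CPM, since leaf had 0 counts. Every symbol of a protoplast library lies far to the right of the limit.

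Transcription factors of several families were among the members. WRKY67, a group III WRKY factor of the class linked to defence, had 652 and 496 counts in protoplasts and 0 and 0 in leaf, a mean of 17.1 ± 0.73 CPM (SD, n = 2), at least 323-fold higher. ERF71, also called HRE2, a group VII factor of the low-oxygen response, had 304 and 272 counts in protoplasts and 0 and 0 in leaf, at least 163-fold higher. AGL51, a MADS-box gene, had 408 and 296 counts in protoplasts and 0 and 0 in leaf. These 3 had the highest counts among transcription factor members with a symbol. MYB3R2, WRKY66, MYB57 and the ethylene-response factor ESE1 lay between 24 and 89 counts in protoplasts and at 0 in leaf. The set held 2 of 70 WRKY loci in the table (2.86%), 2 of 141 AP2/ERF (1.42%) and 3 of 137 MYB (2.19%). It also held 3 of 85 MADS (3.53%) and 4 of 32 B3 domain loci (12.5%). Members were 0.937% of all nuclear loci. With so few members per family, these shares were not tested.

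Whether the rest of a family moved could be tested on genes outside the set. Of 54 tested WRKY genes that are not members, 35 were higher (64.8%, against 39.8% of all genes) and 14 lower, with a median log2 fold change of 1.60; with library size only, 55.6% were higher. WRKY30, another group III gene, had 4941 and 3613 counts in protoplasts, against 43 and 35 in leaf, a log2 fold change of 7.52 ± 0.10 (edgeR, adjusted p = 3.69e-15). WRKY55 had 434 and 360 counts in protoplasts, against 12 and 13 in leaf. WRKY67 therefore sits in a family where more tested genes were higher than over all genes, whereas among 33 tested MADS genes 12 were higher and 13 lower.

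**Figure D4:**
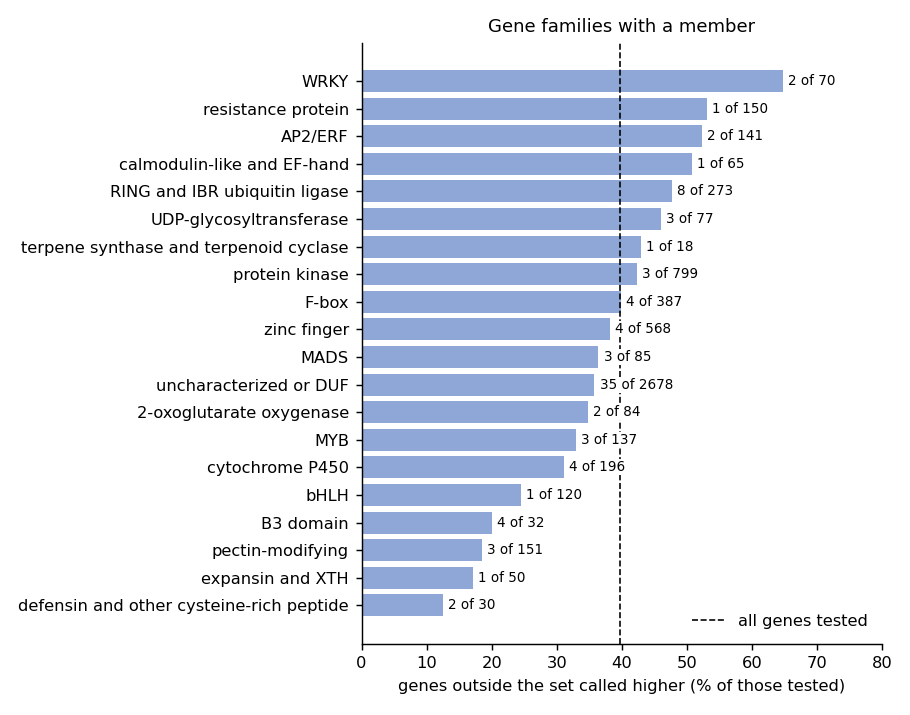
The bars give, for each family with a member, the share of its tested genes outside the set that were called higher in protoplasts by edgeR; the dashed line is the 39.8% of all genes tested, and the text beside a bar gives the members of the set among the family's loci in the table. WRKY genes stand at 64.8%, and expansin and XTH genes at 17.1%, where 68.3% were lower.

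Enzymes that modify small molecules formed another part of the set. UGT73B4, a glucosyltransferase of a group known for flavonoids and foreign compounds, had 498 and 387 counts in protoplasts and 0 and 0 in leaf, 13.2 ± 0.36 CPM (SD, n = 2), at least 249-fold higher. In RefSeq's annotation it lies wholly within the span of UGT73B5 on the same strand, so how reads were divided between them is uncertain. UGT73B5 had 6993 and 5998 counts in protoplasts, against 156 and 188 in leaf, a log2 fold change of 6.00 ± 0.08 (edgeR, adjusted p = 2.42e-15). All 4 other UGT73B genes were higher with every scaling, with log2 fold changes of 7.31 for UGT73B3, 3.73 for UGT73B2 and 1.61 for UGT73B1. Over all 63 tested UDP-glycosyltransferases outside the set, by contrast, 29 were higher (46%, against 39.8% of all genes) and 29 lower (46%, against 40.7%). With library size only 31.7% were higher and 65.1% lower, against 21.4% and 69.6% of all genes.

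Cytochrome P450 members were CYP71B21 (94 and 94 counts in protoplasts), CYP72A10 (58 and 66), CYP96A2 (54 and 28) and CYP704A1 (36 and 24), with 0 and 0 in leaf for each. These oxidise hydrophobic substrates, among them fatty acids and phytoalexin precursors. Of 132 tested P450 genes that are not members, 41 were higher (31.1%, against 39.8% of all genes) and 81 lower (61.4%, against 40.7%). With library size only 22.7% were higher, near the 21.4% of all genes. In CYP71B 2 of 21 were higher and 18 lower.

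GAD5, a glutamate decarboxylase that forms the stress metabolite GABA, had 108 and 84 counts in protoplasts and 0 and 0 in leaf. Its relative GAD4 had 26601 and 20636 counts in protoplasts, against 50 and 42 in leaf, a log2 fold change of 9.76 ± 0.09 (edgeR, adjusted p = 3.04e-16). GAD1 and GAD2 were lower, with log2 fold changes of -2.41 and -0.41, so the family was split in direction. TYRDC, annotated as L-tyrosine decarboxylase, had 62 and 64 counts in protoplasts, and TPS10, a monoterpene synthase, had 32 and 21, both with 0 and 0 in leaf. TGG3, typed as protein coding by RefSeq but described there as a myrosinase pseudogene, had 215 and 152 counts in protoplasts and 0 and 0 in leaf. The functional myrosinases TGG1 and TGG2 were called higher with TMM. With upper-quartile factors 50% of this pair were higher, and with library size only 0% were higher and 50% lower.

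Members linked to protein turnover were ubiquitin ligases, adaptors and F-box genes. The F-box class had 4 members of 387 loci (1.03%, near the 0.937% of all nuclear loci). It was led by AT2G27505 (728 and 591 counts in protoplasts) and AT3G08750 (103 and 74), both with 0 and 0 in leaf. The ARIADNE ligases ARI16, ARI10 and ARI9 had 83 and 62, 50 and 38, and 28 and 26 counts in protoplasts and 0 in leaf. ARI13, which had 110 and 90 counts in protoplasts and 0 and 3 in leaf, was just outside the set. It passed the filter on low counts only through protoplasts, which fixed its direction. Among 7 tested others, ARI13 included, 3 were higher and 2 lower with TMM, beside 39.8% and 40.7% of all genes. This split changes with the scaling. Of 273 RING and IBR ligase loci 8 were members (2.93%, against 0.937% of all nuclear loci). The SKP1-like adaptors SK5 (21 and 26) and SK19 (26 and 21) and the phloem protein-type F-box genes PP2-B2 (38 and 37) and PP2-B8 (24 and 22) had fewer than 40 counts in each protoplast library and 0 in leaf. PP2-B6 had 509 and 420 counts in protoplasts, against 1 and 1 in leaf, a log2 fold change of 9.41 ± 0.24 (edgeR, adjusted p = 1.46e-12). PP2-B6 passed the filter on low counts only through protoplasts, which fixed its direction. With it, 5 of 6 tested PP2-B genes outside the set were higher, against 39.8% of all genes. With library size only 50% were higher, against 21.4% of all genes.

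Signalling members included a calcium sensor and lipid kinases. The calmodulin-like gene CML39 (AT1G76640) had 54 and 36 counts in protoplasts and 0 and 0 in leaf. CML37 had 66429 and 58378 counts in protoplasts, against 117 and 143 in leaf, a log2 fold change of 9.67 ± 0.09 (edgeR, adjusted p = 3.04e-16). CML38 had 40693 and 33464 counts in protoplasts, against 255 and 211 in leaf. Both are wound-responsive calcium sensors related to CML39, and they stand at the high end of the group: of 11 tested CML genes outside the set 6 were higher (39.8% of all genes) and 5 lower, with a median log2 fold change of 0.44, and with library size only 36.4% were higher and 54.5% lower. The lipid kinases PIPK11 (43 and 21) and PIP5K3 (26 and 37), which make a membrane signal lipid, were also at 0 in leaf. Of 6 tested PIP5K genes outside the set 4 were higher and 2 lower, beside 39.8% higher and 40.7% lower over all genes.

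For the stress-associated zinc finger protein SAP10, with 27 and 21 counts in protoplasts and 0 and 0 in leaf, the relative SAP12 had 39317 and 33512 counts in protoplasts, against 14 and 21 in leaf (log2 fold change 11.78 ± 0.10, edgeR adjusted p = 3.04e-16). Of 6 tested genes outside the set whose symbols begin with SAP, 3 were higher (SAP12, SAP7 and SAP5) and 2 lower, beside 39.8% and 40.7% of all genes. Their median log2 fold change was 0.39. With library size only 33.3% were higher, against 21.4% of all genes, and the median was -0.42. The 2 lower ones, SAP130a and SAP130b, share the letters of the symbol but are splicing factor subunits.

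Defence-related members were the defensin LCR67, also called PDF1.1, with 27 and 26 counts in protoplasts, the defensin-like AT3G63360 with 30 and 37, and the receptor-type AT3G25505 (TIR-NBS-LRR) with 43 and 41, each with 0 and 0 in leaf. Of 8 tested defensins and other cysteine-rich peptides outside the set 1 was higher (12.5%, against 39.8% of all genes) and 5 were lower (62.5%, against 40.7%). Their median log2 fold change was -2.34. AT5G63270, of the RIN4 family that immune receptors guard, had 115 and 87 counts in protoplasts and 0 and 0 in leaf. Of 128 tested resistance genes outside the set 68 were higher (53.1%, against 39.8% of all genes) and 34 lower, or 32% higher with library size only, against 21.4% of all genes. Glutathione S-transferases had no member among 53 loci, where members were 0.937% of all nuclear loci, and GSTU3 missed the set by a single leaf read, with 1151 and 909 counts in protoplasts and 1 and 0 in leaf.

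Cell wall members were SVL3 and SVL4, relatives of the wall-organising protein SHV3, with XTH13, the extensin EXT13 and the arabinogalactan protein FLA14. SVL3 had 339 and 236 counts in protoplasts and SVL4 had 312 and 278, both with 0 and 0 in leaf, at least 161-fold and at least 167-fold higher. EXT13 had 38 and 29 counts in protoplasts and FLA14 had 62 and 31, again with 0 and 0 in leaf. FLA14 lies wholly inside emb2742 on the opposite strand, which had 751 and 641 counts in protoplasts, against 1292 and 1325 in leaf, so its reads depend on the unknown strand setting of the counting. In the SVL group 3 of 4 tested others were lower and SHV3, at a log2 fold change of 0.25, was higher with TMM and RLE but not with upper-quartile factors or library size only. Among 92 tested pectin-modifying genes outside the set 64 were lower (69.6%, against 40.7% of all genes) and 17 higher (18.5%, against 39.8%).

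Several members carry names from pollen, seed or root biology; they were picked out here after their values had been seen. ATS1, a peroxygenase (caleosin) of seed oil bodies, had 127 and 123 counts in protoplasts. RMF, named for reduced male fertility, had 82 and 67, and MSP2, a microspore-specific gene, had 58 and 47. RKD4, an RWP-RK factor of the early embryo, had 37 and 30, FIS2, a Polycomb protein of the seed, had 38 and 37, and each of these 5 had 0 and 0 in leaf. The exchanger CHX28 (49 and 48) and ROPGEF12 (48 and 47), a regulator of pollen tube ROP GTPases, were also at 0 and 0 in leaf. Of 11 tested CHX exchangers outside the set 9 were higher (81.8%, against 39.8% of all genes), and with library size only 54.5% were higher, against 21.4% of all genes. CHX17 had 457 and 335 counts in protoplasts, against 3 and 8 in leaf (log2 fold change 6.89 ± 0.23, edgeR adjusted p = 1.86e-11). CHX17 and any other CHX gene with as few leaf counts passed the filter on low counts only through protoplasts, which fixed their direction. LRL3, a bHLH factor of root hairs, had 30 and 22 counts in protoplasts and 0 and 0 in leaf.

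Marker genes of these tissues that were listed separately did not enter the set. The 7 pollen and tapetum markers in the table summed to 1.13 and 1.27 CPM in protoplasts, against 0.0359 and 0.0867 CPM in leaf, and none had enough counts to be tested; VGD1 had 10 and 10 counts in protoplasts and 0 and 0 in leaf. The 9 seed markers summed to 15.8 and 16.0 CPM in protoplasts, against 0.933 and 0.555 CPM in leaf. Most of this came from NF-YB6, with 510 and 413 counts in protoplasts, against 8 and 5 in leaf. Of 5 tested, 4 were higher and 1 lower, and none was a member. NF-YB6, EM1, EM6 and SESA1 passed the filter on low counts only through protoplasts. FUS3, with 0 and 0 counts in protoplasts, passed only through leaf. Their directions were therefore fixed by the filter. The storage protein gene SESA1 fell just short of the threshold, with 21 and 17 counts in protoplasts and 0 and 0 in leaf. EM1 had 24 and 25 counts in protoplasts, against 2 and 0 in leaf, and the storage protein gene CRA1 had 1 and 1 in protoplasts and 0 and 0 in leaf. Of 19 root markers listed, 11 were in the table, and all 7 tested were lower. Those 7 had at least 58 counts in each leaf library, so they say nothing of root genes silent in leaf. CASP2, with 11 and 4 counts in protoplasts, CASP5 and COBL9 were at 0 and 0 in leaf and had too few counts to be tested. The part of these tissues in the counts of the members was not tested.

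MYB0, also called GL1, which starts trichome formation, was the only member on a list of 11 trichome genes. It had 32 and 30 counts in protoplasts and 0 and 0 in leaf. Other genes of the list differed among themselves. GL2, which acts after GL1, had 1 and 0 counts in protoplasts, against 52 and 57 in leaf, and MYB23, a relative of GL1, had 0 and 0 in protoplasts, against 45 and 51 in leaf. TTG1, which acts in a complex with GL1, was not called (log2 fold change -0.07 ± 0.08, edgeR adjusted p = 0.447), and its complex partner GL3 had too few counts to be tested. With TMM, 3 of 10 tested trichome genes were higher, namely TRY, TTG2 and MYB0, which the rule chose on this contrast, and 5 were lower. Among the lower ones, GL2, MYB23, EGL3 and ETC1 passed the filter on low counts only through leaf, which fixed their direction. Nothing is read from this split.

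Of the wound and defence lists, the triterpene, coumarin, indole phytoalexin, ACC synthase, regeneration and PROPEP lists had no member. Members were 0.937% of all nuclear loci, so nothing is read from their absence in lists this small. PROPEP3 missed the set by a single leaf read, with 192 and 159 counts in protoplasts and 1 and 0 in leaf. Loci below the threshold included ACS9, an ethylene-forming ACC synthase, with 13 and 19 counts in protoplasts and 0 and 0 in leaf, and the regulator MYB122 with 21 and 12 counts. All 5 tested ACC synthases were higher in protoplasts, ACS8 with 3335 and 2806 counts, against 7 and 10 in leaf. ACS2, ACS8, ACS9 and ACS11 had at most 10 counts per leaf library. They passed the filter on low counts only through protoplasts, which fixed their direction. ACS6 had 1591 and 1509 counts in leaf. Among indole phytoalexin genes 5 of 9 tested were higher and 4 lower, among regeneration factors 9 of 13 and 3, among coumarin genes 2 of 3 and 1, and among PROPEP genes 1 of 5 and 4. These counts are with TMM, beside 39.8% higher and 40.7% lower over all genes tested. The lists are small, and shares near those say nothing of a list. The filter on low counts also fixed some of these directions. RAP2.6, WIND4, PLT7, PROPEP3 and MYB122, among others, passed it only through protoplasts. WIND3, PLT3, PLT5, PROPEP1, PROPEP4 and PROPEP5, among others, passed it only through leaf. No gene of the triterpene list had enough counts to be tested.

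A large group of members is annotated on the opposite strand of another gene. In RefSeq's gene models 37 of the 52 non-coding members lay wholly inside a coding gene on the other strand, and 73.1% of non-coding members lay wholly inside a measured locus, against 42.7% of all non-coding nuclear loci. Although the kit was directional, the sources used here do not give the strand setting of the counting, so reads of such pairs may not have been separated. In leaf, the partner genes had between 5 and 5995 counts, 19 of the 37 had over 500 in each leaf library, and the members inside them had 0.

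AT1G06153, inside AT1G28390, had 2581 and 2174 counts in protoplasts and 0 and 0 in leaf, and the highest level per length of all members, 324 CPM per kb. Its partner had 129 and 140 counts in protoplasts, against 55 and 50 in leaf. AT5G00895, inside AT5G03020, had 1248 and 1048 counts in protoplasts, and its partner 44 and 25, against 9 and 6 in leaf. In 8 of the 37 pairs the member exceeded its partner in both protoplast libraries, and the median ratio of member to partner counts in protoplasts was 0.183.

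The coding partners moved in both directions. Of 35 tested with TMM, 15 were higher (42.9%, against 39.8% of all genes), 13 lower (37.1%, against 40.7%) and 7 not called, with a median log2 fold change of -0.07. With library size only 25.7% were higher and 68.6% lower, against 21.4% and 69.6% of all genes. ICR1, a scaffold protein for ROP GTPases, had 31 and 19 counts in protoplasts, against 1427 and 1441 in leaf (log2 fold change -5.08 ± 0.13, edgeR adjusted p = 1.14e-12), while AT1G05297 inside it had 80 and 77 in protoplasts and 0 and 0 in leaf. OZS1, the guard cell anion channel also called SLAC1, had 3 and 1 counts in protoplasts, against 118 and 101 in leaf, and AT1G04953 inside it had 81 and 66 counts in protoplasts. BZR1, a brassinosteroid response factor, did not pass the test with TMM (log2 fold change -0.16 ± 0.08, edgeR adjusted p = 0.0661), with AT1G09523 at 116 and 82 counts in protoplasts and 0 and 0 in leaf. BZR1 was lower with upper-quartile factors (log2 fold change -0.49, edgeR adjusted p = 6.24e-05) and with library size only (-0.97, edgeR adjusted p = 4.13e-09).

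**Figure D5:**
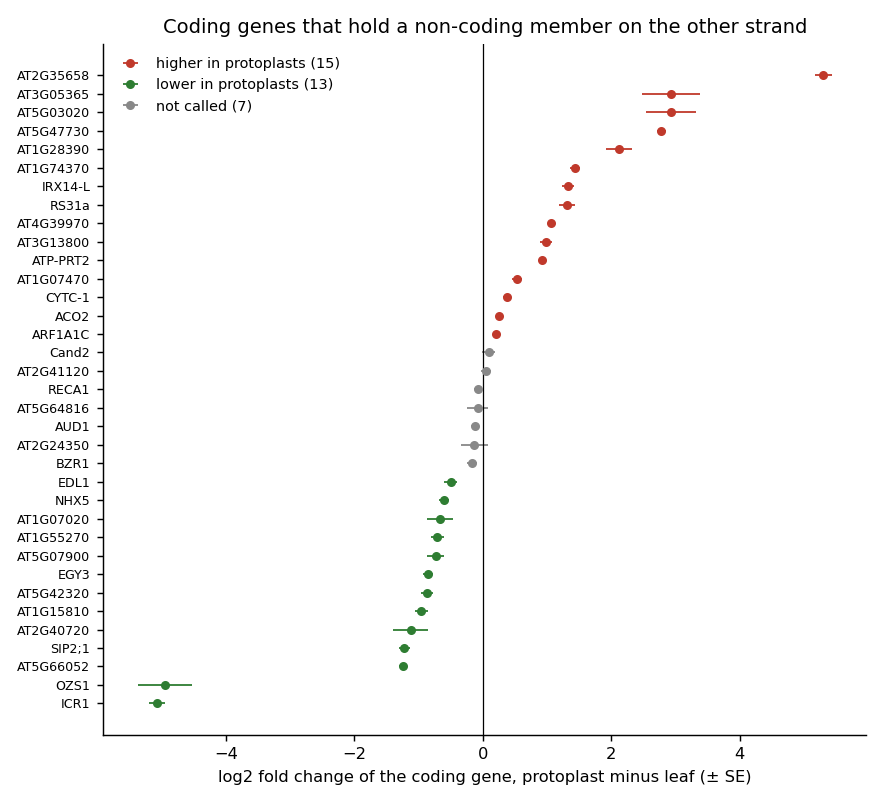
Each row is a tested coding gene that holds a non-coding member on its other strand; points are its log2 fold change, protoplast minus leaf, and lines the SE. Genes called higher (15, red) run up to 5.30 for AT2G35658, and genes called lower (13, green) down to -5.08 for ICR1; 7 grey genes were not called.

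Among small RNA precursors and structural RNAs, the precursor locus of MIR778, a microRNA linked to phosphate starvation, had 60 and 41 counts in protoplasts and 0 and 0 in leaf. It lies wholly within AT2G41620 on the same strand, which had 5844 and 4767 counts in protoplasts, against 2857 and 2968 in leaf, so the reads cannot be assigned to the precursor with certainty. The snoRNA gene U49.1 had 54 and 47, and the non-coding RNA AT4G01533 had 518 and 504, both with 0 and 0 in leaf. Structural RNAs generally lack the poly(A) tails for which the libraries were enriched.

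Loci beside the members were not chosen by the rule, but their test is not wholly independent of it. Neighbours with few leaf counts passed the filter on low counts only through protoplasts, which fixed their direction. How many did so was not counted, so the shares below are a description. Of 311 tested genes that are next to a member without overlapping it, 174 were higher (55.9%, against 39.8% of all genes) and 89 lower, with a median log2 fold change of 0.43 against -0.04 over all genes. With library size only the medians were -0.38 and -0.85 and 35.4% were higher, against 21.4% of all genes. Members adjoined each other in 6 pairs, among them the related genes ARI10 and ARI9, for which the division of reads is uncertain, and PPa3, a soluble pyrophosphatase, beside the kinase-like AT2G46850. PPa3 had 45 and 34 counts in protoplasts and AT2G46850 had 116 and 80, with 0 and 0 in leaf for both.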

How the data were processed

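Read counts per locus were used as the authors deposited them, whole numbers with no normalization. The submitters' processing notes list STAR and DESeq with no version. The sources used here do not give the genome build, the counting program or its strand setting. Every row sums to at least 2. The 24651 nuclear loci were matched by locus tag to RefSeq's TAIR10.1, used for names, gene types, spliced lengths, order and overlap; no coordinate or sequence is given.

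Members, families, lists and relatives were chosen with earlier results of these data known. Genes outside the set were tested with edgeR 4.0.16 in R 4.3.3: quasi-likelihood F test, group only, TMM factors (0.764 and 0.749 for protoplasts, 1.32 and 1.32 for leaf), filterByExpr, which left 20200 genes and set aside 4704, and Benjamini and Hochberg adjustment at 0.05. Fold changes are protoplast minus leaf. A gene with few counts in one group passed filterByExpr through the other group alone, which fixed the direction of its call. On simulated data the test recovered 88% of genes changed 2-fold and called 12 of the unchanged genes. The simulation changed only a small part of the genes and gave all genes the same dispersion. In the real data 80.5% of tested genes were called, so the simulation does not measure errors that come from the scaling. The named members were the 20 with a symbol and the highest CPM, the top 2 of each of 29 families, those on a list, the top non-coding loci and adjacent pairs; others were named after their values were seen. Limits from counts of 0 cover counting error alone, because the reads carry no molecular identifiers.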

Additional observations from a re-analysis of the deposited data

How the results depend on the processing

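The set held 231 loci; 428 with a minimum of 10 counts, 99 with 50, and 451 with up to 3 leaf counts, and 247 to 323 when any library was left out. The mirrored set of 152 held 242 with a minimum of 10, 65 with 50, 254 with up to 1 and 463 with up to 3 protoplast counts, and 167 to 302 when any library was left out; the values without protoplast library 1 and without protoplast library 2 were 302 and 245. The median fold bound of 27.1 was 27.8 with RLE factors, 21.6 with upper-quartile factors, 15.5 with library size only and 26.7 to 27.6 when a library was left out. Of 8036 genes called higher and 8231 called lower, library size only gave 4326 and 14057, with the all-gene median at -0.85 on the log2 scale. The replicate block gave 7782 and 7868; deviations of same-numbered libraries correlated at -0.169, and the numbers were not taken to pair libraries; the crossed pairing, chosen after seeing the data, gave 8271 and 8475. DESeq2 gave 8166 and 6707. Promoter motifs were not run. With 2 libraries a group, members near 20 counts are imprecise.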
